A study of Mus musculus with 24 samples.

Results

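The data set compared 2 lists of H3K27ac summits from mouse embryonic fibroblasts (MEFs), one from cells with intact Prrx1 (WT_PRRX1) and the other from cells in which Prrx1 had been targeted by CRISPR/Cas9 with a guide RNA against its first exon (SG_PRRX1). A summit is the single base at which a called region of enrichment was highest, and its −log10 p gives the strength of the enrichment over the matching input. All 87937 summits of both lists were used, 44918 from WT and 43019 from SG, out of 309261 H3K27ac summits in the 7 H3K27ac lists of the series. A summit was called shared where the other list held a summit within 500 bp, and WT-only or SG-only where it did not. A summit within 1000 bp of the transcription start site (TSS) of a protein-coding gene was called a promoter summit and any other a distal summit, and each was assigned to the gene of the nearest TSS.

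The MEFs of both genotypes were derived from C57BL/6 embryos harvested between embryonic days 10 and 13, were immortalised with HPV E6/E7, and were grown in DMEM with FBS, so every comparison was made within immortalised lines. Cells carrying a non-targeting guide (SgNS) were the stated control for the guide, but whether the WT MEFs carried it was not stated in the sources used here, and neither was the number of clones or embryos behind each line. Each genotype gave 1 H3K27ac library, 1 H3K4me3 library and, for WT, 1 deposited PRRX1 list. There was therefore no replicate, no test and no p-value, and the depth of the libraries is unknown, since the lists hold no read counts. Each range after a share is its Wilson 95% interval and covers the counting of summits alone.

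PRRX1 is a paired-type homeodomain transcription factor of mesenchymal cells. H3K27ac is deposited by the p300 and CBP acetyltransferases and marks active promoters and enhancers, whereas H3K4me3 marks the starts of transcribed or poised genes. In fibroblasts, long stretches of closely spaced acetylated sites lie near genes of the extracellular matrix, of cell adhesion and of growth control. Interferon-stimulated genes are switched on in part through IRF proteins, which bind paired GAAA half-sites in their promoters.

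The promoters of 6 interferon-stimulated genes are shown first, because 12 such genes had a promoter summit in WT and none in SG. They are the 5 strongest of the 12 and Ifit3, a near copy of the first. Each runs from 250 bases before to 50 bases after the 5′ end of the gene in mm9 (NCBIM37), read on the strand of the gene, and capitals mark each place, on either strand, where GAAA recurs after 2 bases of any kind (the paired GAAA word).
I830012O16Rik chr19:34682171-34682470 (+): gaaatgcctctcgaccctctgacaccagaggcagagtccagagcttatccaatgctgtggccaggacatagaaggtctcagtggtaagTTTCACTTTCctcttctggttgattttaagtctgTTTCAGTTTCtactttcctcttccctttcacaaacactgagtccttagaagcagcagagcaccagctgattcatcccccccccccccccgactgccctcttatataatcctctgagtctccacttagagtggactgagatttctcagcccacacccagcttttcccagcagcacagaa
Trim30a chr7:111613658-111613957 (-): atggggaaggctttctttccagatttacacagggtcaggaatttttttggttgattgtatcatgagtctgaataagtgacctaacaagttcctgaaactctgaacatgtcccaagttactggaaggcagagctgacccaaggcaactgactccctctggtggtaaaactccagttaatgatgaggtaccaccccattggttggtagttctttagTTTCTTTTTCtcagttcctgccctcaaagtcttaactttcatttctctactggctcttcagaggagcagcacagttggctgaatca
Mx2 chr16:97757440-97757739 (+): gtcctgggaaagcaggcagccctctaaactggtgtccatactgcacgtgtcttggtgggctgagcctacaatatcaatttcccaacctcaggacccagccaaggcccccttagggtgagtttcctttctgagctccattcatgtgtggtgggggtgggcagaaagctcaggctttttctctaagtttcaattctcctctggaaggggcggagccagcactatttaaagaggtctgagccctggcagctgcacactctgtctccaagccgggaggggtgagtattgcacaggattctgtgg
Usp18 chr6:121195674-121195973 (+): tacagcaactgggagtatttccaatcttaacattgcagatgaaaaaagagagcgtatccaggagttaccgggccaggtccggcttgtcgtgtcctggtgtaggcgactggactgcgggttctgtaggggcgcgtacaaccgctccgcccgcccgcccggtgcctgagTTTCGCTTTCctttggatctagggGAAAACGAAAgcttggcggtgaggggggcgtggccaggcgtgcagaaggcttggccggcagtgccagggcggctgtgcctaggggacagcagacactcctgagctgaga
Ifi44 chr3:151412862-151413161 (-): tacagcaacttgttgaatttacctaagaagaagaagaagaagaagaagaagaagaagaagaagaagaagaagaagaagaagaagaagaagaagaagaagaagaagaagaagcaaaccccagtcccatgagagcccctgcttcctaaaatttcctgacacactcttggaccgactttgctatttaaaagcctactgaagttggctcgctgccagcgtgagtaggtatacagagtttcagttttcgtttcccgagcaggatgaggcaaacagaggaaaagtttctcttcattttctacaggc
Ifit3 chr19:34657771-34658070 (+): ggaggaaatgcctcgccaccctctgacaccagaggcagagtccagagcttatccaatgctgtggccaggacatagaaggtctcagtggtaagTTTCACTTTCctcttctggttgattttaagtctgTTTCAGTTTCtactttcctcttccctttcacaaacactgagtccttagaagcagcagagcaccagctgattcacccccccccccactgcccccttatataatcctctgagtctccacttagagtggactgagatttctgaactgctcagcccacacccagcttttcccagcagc
The I830012O16Rik and Ifit3 promoters each held 2 matches and had an identical stretch of 182 bp in common, so that reads of these neighbouring copies may have been assigned to either. The Mx2 and Ifi44 promoters held no match.

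The windows below show 1 distal site for each of 9 of the 10 genes with the largest excess of WT-only or SG-only summits, Nedd4l being left out. Each is the strongest distal summit of that kind that lay more than 1000 bp from any summit of the other list, with 100 bases to either side (mm9, plus strand). Capitals mark matches on either strand to TAATTA (the homeodomain word), TGANTCA (the word of AP-1), GGAATG (the word of TEAD factors), CAGCTG (an E-box) or CCNCNCCC (the word of KLF factors).
Adamts5 chr16:86212455-86212655 (+): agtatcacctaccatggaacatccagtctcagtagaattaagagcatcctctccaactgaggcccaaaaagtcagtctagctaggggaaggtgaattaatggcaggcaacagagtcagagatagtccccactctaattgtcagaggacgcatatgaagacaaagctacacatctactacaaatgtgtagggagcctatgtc
5930403N24Rik chr10:37120877-37121077 (+): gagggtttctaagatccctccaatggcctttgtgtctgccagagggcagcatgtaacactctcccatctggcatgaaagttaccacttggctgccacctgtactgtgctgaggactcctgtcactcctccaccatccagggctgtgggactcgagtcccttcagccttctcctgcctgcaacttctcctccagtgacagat
Thbs1 chr2:117865629-117865829 (+): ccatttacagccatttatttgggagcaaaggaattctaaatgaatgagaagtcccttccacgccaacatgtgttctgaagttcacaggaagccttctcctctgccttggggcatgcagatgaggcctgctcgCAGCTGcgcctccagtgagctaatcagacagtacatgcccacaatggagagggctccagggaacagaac
Sorbs2 chr8:46625475-46625675 (+): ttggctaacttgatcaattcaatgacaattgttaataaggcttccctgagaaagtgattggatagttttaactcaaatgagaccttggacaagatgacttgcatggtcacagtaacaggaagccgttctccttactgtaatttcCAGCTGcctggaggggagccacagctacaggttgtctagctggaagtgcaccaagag
Has2 chr15:56674347-56674547 (+): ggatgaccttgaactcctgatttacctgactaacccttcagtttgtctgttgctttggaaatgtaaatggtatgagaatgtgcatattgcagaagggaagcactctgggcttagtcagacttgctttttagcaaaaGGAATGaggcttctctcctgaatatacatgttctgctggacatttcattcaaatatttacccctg
Ccnd1 chr7:152156829-152157029 (+): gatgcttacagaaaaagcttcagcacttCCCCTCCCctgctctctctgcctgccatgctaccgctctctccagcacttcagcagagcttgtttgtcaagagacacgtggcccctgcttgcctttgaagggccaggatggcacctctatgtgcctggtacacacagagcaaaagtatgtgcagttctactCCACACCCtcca
Zmiz1 chr14:26406985-26407185 (+): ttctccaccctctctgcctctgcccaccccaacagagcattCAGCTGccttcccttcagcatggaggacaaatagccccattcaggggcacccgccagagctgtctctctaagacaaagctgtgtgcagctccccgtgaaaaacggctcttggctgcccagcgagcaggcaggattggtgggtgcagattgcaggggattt
Sipa1l3 chr7:30277584-30277784 (+): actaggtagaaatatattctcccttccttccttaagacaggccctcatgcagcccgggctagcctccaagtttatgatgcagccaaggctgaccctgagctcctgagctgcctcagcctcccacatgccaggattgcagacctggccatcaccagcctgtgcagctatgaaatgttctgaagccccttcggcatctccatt
Runx3 chr4:134747197-134747397 (+): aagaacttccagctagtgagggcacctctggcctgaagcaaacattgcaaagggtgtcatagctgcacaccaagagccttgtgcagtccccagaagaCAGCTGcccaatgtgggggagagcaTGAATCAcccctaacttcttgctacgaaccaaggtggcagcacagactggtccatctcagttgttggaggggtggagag
Adamts5 to Has2 were WT-only sites with a GC content of 40.8% to 55.2%, and Ccnd1 to Runx3 were SG-only sites with 54.2% to 58.2%. The Adamts5, 5930403N24Rik and Sipa1l3 windows held no match to any of the words, and none of the 9 held TAATTA.

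The lists were of similar length and differed mostly outside promoters. Of the WT summits, 14270 (31.77%) were WT-only, made up of 2266 of 14615 promoter summits (15.50%) and 12004 of 30303 distal summits (39.61%). Of the SG summits, 12923 (30.04%) were SG-only, made up of 1698 of 13630 promoter summits (12.46%) and 11225 of 29389 distal summits (38.19%). The one-list summits were weaker than the shared ones of the same list and kind. The median −log10 p of distal WT-only summits was 11.0 against 18.4 for distal WT summits shared with SG, and that of distal SG-only summits was 11.4 against 20.2. At promoters the medians were 22.1 against 37.2 in WT and 14.5 against 61.8 in SG.

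A summit that failed the 500 bp rule was often not far from the other list. Between 500 and 1000 bp from an SG summit lay 1727 (76.2%) of the promoter and 3434 (28.6%) of the distal WT-only summits. The same distance held 760 (44.8%) of the promoter and 3324 (29.6%) of the distal SG-only summits. At the other end, more than 25 times the 500 bp from any summit of the other list, stood 3852 WT-only summits (131 promoter and 3721 distal) and 2684 SG-only summits (453 promoter and 2231 distal), which are called isolated from here on. Isolated sites were therefore more often WT-only among distal summits and more often SG-only among promoters. The isolated class was defined after these distances were seen.

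**Figure D1:**
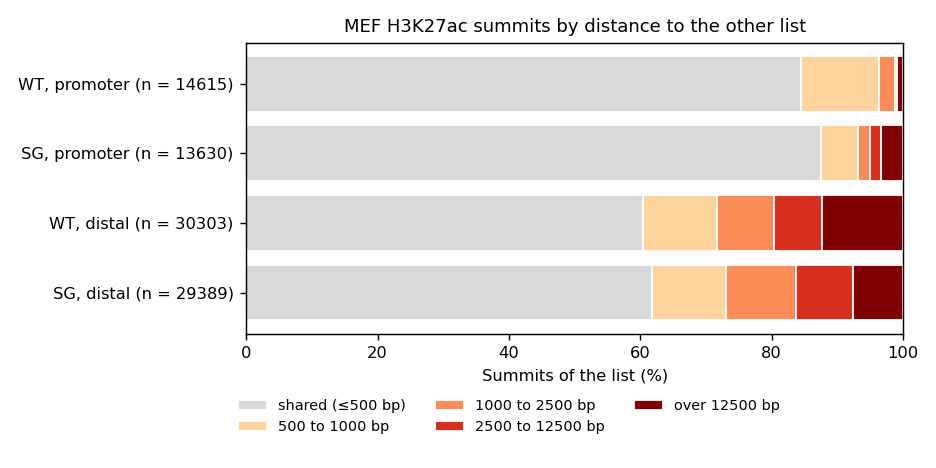
Share of the WT and SG H3K27ac summits (horizontal axis, percent of each class) by distance to the nearest summit of the other list, for promoter and distal summits; grey is shared and the darkest colour is isolated. Isolated summits made up 12.3% of distal WT and 7.59% of distal SG summits, and 0.896% of promoter WT and 3.32% of promoter SG summits.

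The 10 strongest distal one-list summits of each direction, at most 1 per gene, lay 538 to 1891 bp from a summit of the other list. Among the WT-only ones the strongest were near Cdkn1b, which encodes a cyclin-dependent kinase inhibitor (−log10 p 119, with an SG summit 1077 bp away), Tnrc18 (115, 656 bp), Frmd8 (106, 1102 bp), Pkm2, which encodes pyruvate kinase (105, 688 bp), and Tubd1 (103, 595 bp). Col1a2, which encodes a type I collagen chain (103, 551 bp), Ranbp3l (103, 673 bp), Vasp (102, 1303 bp), 1700001O22Rik (100.4, 976 bp) and Fbxl17 (100.4, 538 bp) followed. Among the SG-only ones the strongest were near the homeobox gene Meis2 (150, with a WT summit 1891 bp away), Frmd8 (135, 1102 bp), Kctd10 (132, 1163 bp), Klhdc8a (130.5, 990 bp) and Tnrc18 (128, 656 bp). S100a3 (126, 710 bp), Bcl2l1, which encodes an inhibitor of apoptosis (123, 581 bp), Slc48a1 (122, 783 bp), Nfix (121, 585 bp) and Dhx34 (120.5, 1128 bp) followed. Frmd8 and Tnrc18 stood in both sets with the same distances.

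Where both lists had a summit, promoters were stronger in SG. In 29634 pairs of summits that were each other's nearest, the promoter median was a −log10 p of 38.4 in WT and 62.3 in SG, and 10688 of 11825 promoter pairs (90.4%) were higher in SG. The distal medians were 18.6 and 20.6, and 60.2% of 17809 distal pairs were higher in SG. A −log10 p depends on the depth of the library and its input as well as on enrichment, and the part of depth in this shift was not tested. 

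Genes with a promoter summit in only 1 list were few. A promoter was called WT-only or SG-only where only that list held a summit within 1000 bp of a TSS of the gene. The 500 bp rule was not applied to it, so such a summit could be shared with one just outside the 1000 bp. A WT-only promoter was found for 213 of 10826 genes with a WT promoter summit (1.967%), and an SG-only promoter for 604 of 11217 genes with an SG promoter summit (5.385%). H3K4me3, taken from separate libraries, covered a TSS of 137 of the 213 WT-only genes (64.3%, 57.7 to 70.4) in WT and of 106 (49.8%, 43.1 to 56.4) in SG. Of the WT-only genes, 31 carried H3K4me3 in WT and not in SG, and 0 carried it in SG and not in WT, with 25 and 11 such genes among the 604 SG-only genes. Among the 10613 genes with a promoter summit in both lists these numbers were 150 and 35. Among the 10942 genes with none they were 300 and 53. The SG-only genes were already marked by H3K4me3 in WT in 466 cases (77.2%, 73.6 to 80.3), against 452 (74.8%, 71.2 to 78.1) in SG. Their regions were narrow, with a median of 1243 bp in WT against 2366 bp for genes with a promoter summit in both lists, and their SG summits were weak, with a median −log10 p of 15.4.

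The strongest WT-only promoters were at Thbs1 (94.3), which encodes the TGF-β-activating glycoprotein thrombospondin, Tctex1d4 (91.4), Asna1 (83.2), Hnrnpul2 and Ttc9c (one summit of 80.2 between them), Pigl (76.7), Eno3 (75.4), S100a6 (73.5), Mxra8 (69.8) and Prkcdbp (69.6). All 10 had an SG summit between 195 and 2112 bp from the WT summit. The S100a6 summit, at 195 bp, was therefore a shared one by the 500 bp rule. The strongest SG-only promoters were at the homeobox gene Meis1 (147), the receptor gene Lrp1 (134), the TWEAK receptor gene Tnfrsf12a (133), the receptor tyrosine kinase gene Axl (117), Nek8 (97.3), the Wnt secretion gene Wls (93.7), Lrrc4c (92.9), Mtap6 (89.9), C2 (89.7) and Vasp (87.7). Their nearest WT summits lay 800 to 5492 bp away. For 96 of the WT-only genes (45.1%) and 368 of the SG-only genes (60.9%) the promoter summit was isolated. At the 131 isolated WT promoter summits H3K4me3 was present at 65.6% (57.2 to 73.2) in WT and at 30.5% (23.3 to 38.9) in SG, and at the 453 isolated SG promoter summits at 84.1% (80.5 to 87.2) and 85.4% (81.9 to 88.4).

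The isolated WT-only promoter summits, whose genes were chosen after their values were seen, were led by Sepp1 (61.8), which encodes a selenium transport protein, I830012O16Rik (59.6), Trim30a (42.4), Fibin (36.0), the natriuretic peptide receptor gene Npr3 (32.5), Pde8b (30.8) and Usp18 (27.7). The H3K4me3 region at the start of Sepp1 was 1464 bp wide in WT and 277 bp in SG, that of Fibin 1785 and 798 bp, and that of Pde8b 2466 and 505 bp. The isolated SG-only promoter summits were led by Gfra2 (60.9), which encodes a neurturin receptor subunit, the neuronal tubulin gene Tubb3 (60.5), Efs (50.0), Coro2a (48.5) and Runx1t1 (41.3, at a start other than the one acetylated in both lists). H3K4me3 was present in both lines at these genes, with widths of 1632 bp in WT and 1785 bp in SG at Gfra2 and of 1131 and 1581 bp at Tubb3.

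Interferon-stimulated genes had WT-only promoters and no SG-only promoters. A list of 58 such genes was drawn up from general knowledge after the leading isolated promoters had been seen, so its counts are a description. In this list 12 genes had a WT-only promoter, 0 an SG-only promoter, 42 a promoter summit in both lists and 4 none, beside 1.967% WT-only and 5.385% SG-only over all genes with a promoter summit in that list. The nearest SG summit lay 1737 bp from the WT promoter summit at Mx2, 4544 bp from that at Ifi47, and at least 13345 bp from the others. Mx2 was nearest to 2 WT and 3 SG summits, all of them one-list. The 12 were I830012O16Rik (−log10 p 59.6), Trim30a (42.4), Mx2 (33.7), Usp18 (27.7), Ifi44 (24.3), Oas1a (20.6), Ifi47 (20.4), Ifit3 (18.8), Slfn8 (15.8), Oas2 (14.8), Tgtp2 (14.3) and Zbp1 (7.82). They span the IFIT and OAS families of antiviral effectors, the MX dynamin-like GTPases, the immunity-related GTPases Ifi47 and Tgtp2, the nucleic acid sensor gene Zbp1, and Usp18, a negative regulator of interferon receptor signalling.

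Of the 42 interferon-stimulated genes with a promoter summit in both lists, 20 were stronger in SG (47.6%, 33.4 to 62.3), against 93.4% of all 10613 genes with a promoter summit in both. Ifi27l1 went from 104 in WT to 31.2 in SG, Oasl2 from 79.5 to 36.3, Isg15, which encodes a ubiquitin-like modifier, from 44.5 to 15.6, Ifit1 from 40.02 to 10.7, Dhx58 from 27.8 to 12.4, and Irf7, which encodes a transcription factor of the interferon response, from 32.7 to 17.0. Others were higher in SG, among them Irf1 (28.1 to 66.4), Samhd1 (41.1 to 82.2) and Psmb8 (47.7 to 76.0). The values were 55.2 and 42.7 for Stat2. The genes given here with their values were chosen after those values were seen.

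H3K4me3, from separate libraries, was also present at fewer of these genes in SG. It covered the start of 52 of the 58 genes in WT and of 39 in SG (over all genes, 95.7% of those marked in WT were marked in SG). Among the 12 WT-only promoters the numbers were 9 and 1, and the gene still marked was Usp18, with a region of 4390 bp in WT and 1115 bp in SG. Among the 39 genes marked in both lines the region was narrower in SG in 36 (92.3%), against 75.6% of all 11233 such genes. The region at I830012O16Rik (2713 bp), Ifit3 (3553 bp), Ifi44 (2946 bp), Mx2 (5834 bp), Oas1a (2018 bp), Slfn2 (2666 bp) and Rsad2 (2757 bp) was present in WT and no region was called in SG.

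Of the 12 WT-only promoters 9 held the paired GAAA word in the 300 bases shown above for 6 of the 12, as did 20 of the 42 genes with a promoter summit in both lists, against 846 of 22367 protein-coding genes (3.78%). Over all 213 WT-only promoters the word was present in 20 (9.39%, 6.16 to 14.1), and over the 604 SG-only promoters in 17 (2.81%, 1.76 to 4.46). A match is a description of the letters and not of binding. Tgtp1 with Tgtp2 and the IFIT genes are near copies of one another, and Psmb9 and Tap1 share 1 promoter, so that these counts are not of fully separate loci.

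**Figure D2:**
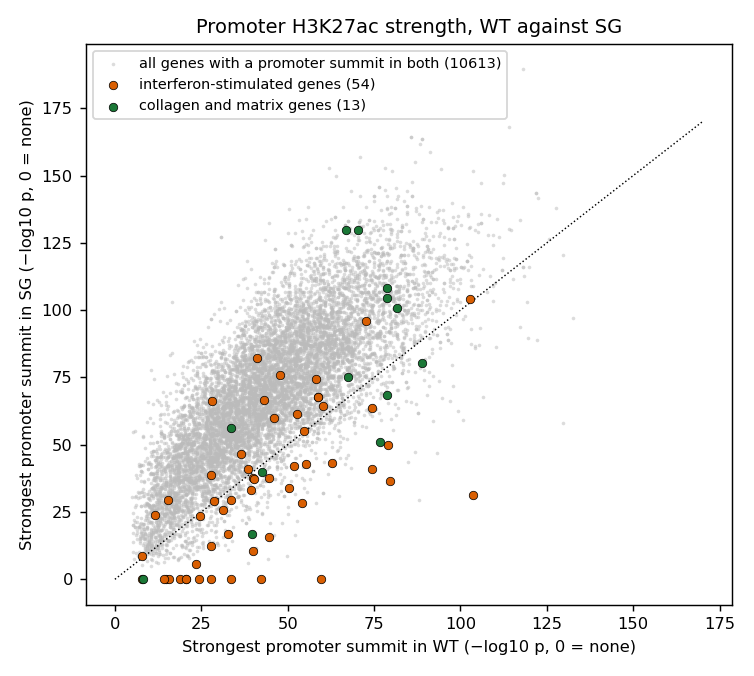
Strongest promoter summit of each gene in WT (horizontal axis) and in SG (vertical axis), both as −log10 p with 0 for none; grey points are genes with a promoter summit in both lists, orange points interferon-stimulated genes and green points collagen and matrix genes, and the dotted line marks equal values. Of the grey points 93.4% lie above the line, against 20 of the 42 orange points with a summit in both lists, and 12 further orange points lie at 0 in SG.

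Counted over all their nearest summits, promoter and distal, interferon-stimulated genes had a larger share of WT-only summits than the whole list. Slfn2, named after its values were seen and a member of the schlafen family, had 3 WT summits, at −1.11, 13.4 and 15.3 kb from its start with −log10 p of 30.3, 53.6 and 7.88, and none in SG, the nearest SG summit being at least 72991 bp away. Its site at 13.4 kb was the strongest isolated distal WT-only summit of the genome. At Ifi47 and Tgtp2 a run of 7 WT-only summits covered chr11:48877952-48903677. Of the 122 WT summits nearest to the 58 genes, 57 were WT-only (46.7%, 38.1 to 55.5), against 31.77% of all WT summits, and of 89 SG summits 27 were SG-only (30.3%, 21.8 to 40.5), against 30.04%.

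Stretches of many one-list summits at one locus were found by joining neighbouring one-list summits up to 25 times the 500 bp apart with no summit of the other list between them, and keeping runs of 3 or more. WT had 684 such runs with 2479 summits, and SG had 543 with 1847. Runs of 5 or more summits numbered 107 in WT and 38 in SG, and runs with no summit of the other list within that distance on either side 250 and 110. With a −log10 p of at least 10 in both lists the totals were 378 WT-only and 395 SG-only runs. With lists cut to equal size they were 585 and 608, and both settings turned the order.

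The run with the most WT-only summits had 11, at chr10:37325161-37349521, outside protein-coding genes and at least 465797 bp from its nearest TSS, that of 5930403N24Rik. Its summits had −log10 p of 7.09 to 15.0. The next were 10 summits near Olfr455 (chr6:42510243-42531450), 10 in Svep1 (chr4:58197158-58217180), whose product is a large secreted adhesion protein, 9 and 8 in Sorbs2 (chr8:46669297-46689412 and chr8:46771313-46779321), 8 in Cwc27 (chr13:105472736-105479841), 7 in Yap1 (chr9:7967144-7984500), 7 at Ifi47 and Tgtp2, 7 upstream of Adamts5 (chr16:86388991-86396797) and 7 near Nhs (chrX:158778500-158786753). The Olfr455 and Yap1 runs reached −log10 p of 36.9 and 34.2. The nearest SG summit lay as close as 711 bp to the Yap1 run and no closer than 37298 bp to the Nhs run.

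The run with the most SG-only summits also had 11 and lay in the body of Col1a1, which encodes the main chain of type I collagen, at chr11:94800482-94810016. The −log10 p of its summits was 7.09 to 16.2, and the nearest WT summit was 2668 bp away. The other runs held 8 summits across Tnfrsf12a, Cldn6 and Cldn9 (chr17:23814189-23831808), 8 and 6 in Sipa1l3 (chr7:30276517-30296527 and chr7:30245527-30269383), 8 in Bcr (chr10:74574500-74589840), 7 in Vmp1 (chr11:86406172-86414939), 7 in Hip1r (chr5:124425882-124440484), 6 near Rb1cc1 (chr1:6298116-6304159), 6 across 6430531B16Rik and Adam8 (chr7:147159460-147180168) and 6 in Nedd4l. All 10 had a WT summit within 3028 bp of one end, and the strongest were at Tnfrsf12a (133) and in Vmp1 (59.2).

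Counted by nearest gene, 13591 genes had at least 1 summit, of which 3944 had more WT-only than SG-only and 3866 more SG-only than WT-only summits. Differences of 10 or more summits were found for 82 genes towards WT and 25 towards SG. WT summits and no SG summit were assigned to 698 genes, and for 614 of these every WT summit was WT-only. The most were at Pde1a (9), Gm4953 (8) and Mei4 (7). SG summits and no WT summit were assigned to 840 genes, and for 800 of these every SG summit was SG-only. The most were at Btbd11 (7) and Nkain2 (6), followed by C030037F17Rik, Olfr90 and the homeobox gene Dlx4 with 5 each.

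**Figure D3:**
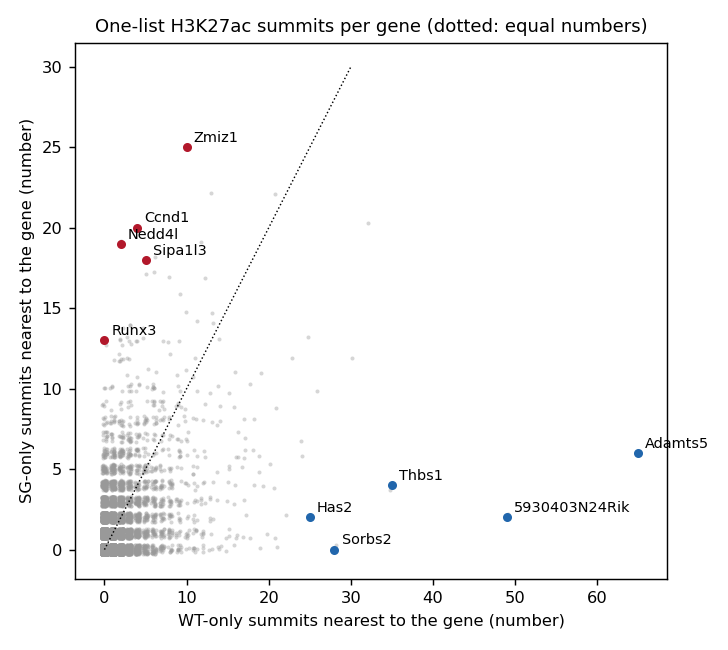
Number of WT-only (horizontal axis) and SG-only (vertical axis) summits for each gene with a summit; each point is 1 gene, shifted slightly at random so that equal values can be seen, and the dotted line marks equal numbers. The named genes are the 5 with the largest difference in each direction, from Adamts5 with 65 WT-only and 6 SG-only summits to Runx3 with 0 and 13.

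Adamts5 (chr16:85858415-85901370), which encodes an aggrecan-cleaving metalloproteinase, had the largest excess of WT-only summits. It was nearest to 99 WT and 39 SG summits, of which 65 and 6 were one-list. The WT-only summits were spread from −519 to 5.06 kb from its start, with a median −log10 p of 12.46 and a maximum of 32.5. The shared ones were weaker in SG as well, with a median of 30.2 over 34 WT summits and 17.8 over 33 SG summits, although its promoter went the other way, from 46.5 to 94.9.

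Thbs1 (chr2:117937612-117952869) had 54 WT and 23 SG summits, with 35 WT-only and 4 SG-only. The WT-only summits ran from −382 to 2.98 kb and had a median of 15.6, and the 19 shared summits of each list had medians of 26.1 in WT and 15.7 in SG. The strongest WT-only summit, 0.259 kb into the gene with a value of 94.3, had an SG summit 2112 bp away, and H3K4me3 over the promoter was 7351 bp wide in WT and 5337 bp in SG. Has2 (chr15:56497182-56526094), which encodes a hyaluronan synthase, had 42 and 19 summits, with 25 WT-only and 2 SG-only. Its H3K4me3 region was 6038 bp wide in WT and 3968 bp in SG.

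Sorbs2 (chr8:46593148-46913259), which encodes an adapter protein of actin fibres and cell junctions, had 30 WT summits and 2 SG summits. Both SG summits were shared, at 72.6 and 212 kb from the start, with −log10 p of 44.1 and 11.3 against 45.2 and 31.2 in WT. The 28 WT-only summits reached from 19.6 to 218 kb with values of 6.12 to 34.7, and 25 of them were isolated. The H3K4me3 region at its promoters was 1948 bp wide in WT and 560 bp in SG. The gene 5930403N24Rik (chr10:36859364-36861485) had 60 and 13 summits with 49 WT-only and 2 SG-only, out to 756 kb from its start, and its H3K4me3 region was 7293 and 7196 bp wide.

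In the other direction, Runx3 (chr4:134676567-134733905), which encodes a Runt-domain transcription factor, had 2 WT and 15 SG summits. The 2 WT summits had −log10 p of 14.0 and 11.1 and the SG summits paired with them 45.0 and 50.6. The 13 SG-only summits lay between −75.6 and 71.5 kb, with values of 5.67 to 31.2, and 7 were isolated. Its H3K4me3 region was 2398 bp wide in WT and 2552 bp in SG. Ccnd1 (chr7:152115836-152125774), which encodes cyclin D, had 20 WT and 34 SG summits with 4 WT-only and 20 SG-only, and its shared summits had a median of 15.5 in WT and 49.2 in SG. Its only promoter summit was WT-only (54.7), with an SG summit 1789 bp away. Zmiz1 (chr14:26278671-26486229) had 30 and 44 summits with 10 and 25 one-list, Sipa1l3 (chr7:30105397-30290479) 13 and 26 with 5 and 18, and the ubiquitin ligase gene Nedd4l 9 and 26 with 2 and 19. None of the 20 SG-only summits of Ccnd1 was isolated, nor were those of Sipa1l3 save 1, so that these SG-only summits were not isolated from WT summits.

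**Figure D4:**
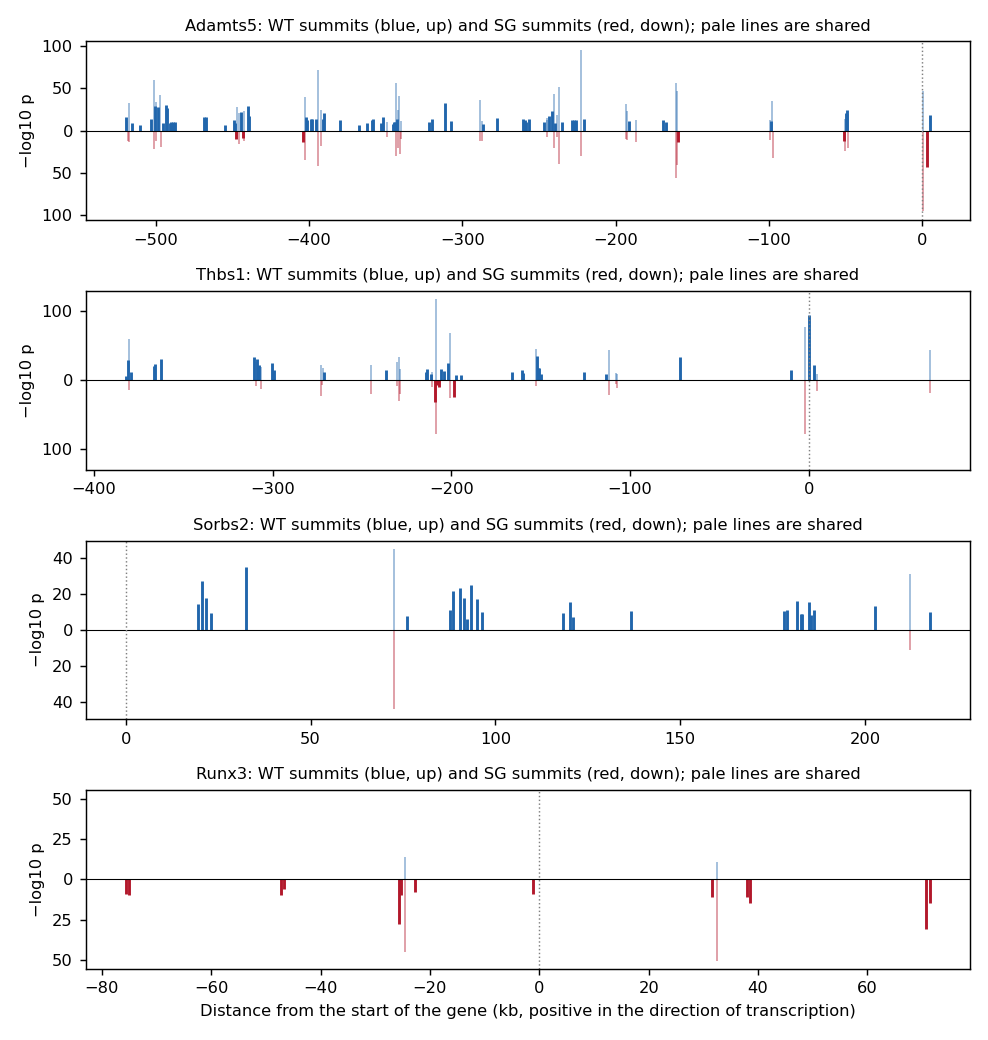
H3K27ac summits of WT (blue, upwards) and SG (red, downwards) nearest to Adamts5, Thbs1, Sorbs2 and Runx3, by distance from the start of the gene in kb (horizontal axis) and −log10 p (vertical axis); pale lines are shared summits. Sorbs2 has 28 WT-only and 0 SG-only lines, and Runx3 has 0 and 13.

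Genes of the fibroblast matrix differed among themselves. Over 18 matrix genes, 71 of 172 WT summits were WT-only (41.3%, 34.2 to 48.7) and 42 of 143 SG summits were SG-only (29.4%, 22.5 to 37.3), beside 31.77% and 30.04% of all summits, and 9 genes had more WT-only and 5 more SG-only summits. Towards WT stood the small proteoglycan genes Dcn (10 WT-only against 1 SG-only) and Lum (4 against 0), Tnc, which encodes tenascin (12 against 1), Col5a2 (11 against 2) and Col3a1 (8 against 4). All 4 summits of Lum were isolated, and the strongest, at −28.4 kb with a value of 24.3, had a PRRX1 summit within 500 bp. Towards SG stood Col1a1 (3 against 8), Col5a1 (1 against 7) and Lox, which encodes lysyl oxidase (2 against 5). The counts of Col1a1 and of the list leave out 6 SG-only summits in the body of Col1a1, whose nearest TSS was that of Gm17329.

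The promoters of the matrix genes also differed among themselves, and not always in the direction of the summit counts. Of the 12 with a summit in both lists 7 were stronger in SG (58.3%, 32.0 to 80.7), against 93.4% of all genes. Dcn went from 39.8 to 16.8, Col3a1 from 76.7 to 51.0, Bgn from 78.8 to 68.5, Col5a2 from 89.0 to 80.5 and Vcan from 42.7 to 39.8, whereas Col1a1 went from 78.6 to 108, Col5a1 from 70.3 to 130 and Lox from 66.8 to 130. Sparc had more WT-only than SG-only summits (4 against 2) and a stronger promoter in SG (78.9 and 104), and Bgn the reverse (1 against 3). Col11a1 was the only matrix gene with a one-list promoter (WT, 8.13), and its H3K4me3 region was 2932 bp wide in WT and 519 bp in SG. The Postn region of 1929 bp in WT was not called in SG.

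Of the 97 WT and 100 SG summits of contractile genes, 35 and 35 were one-list (36.1%, 27.2 to 46.0, and 35.0%, 26.4 to 44.7), and both ranges held the shares over all summits, 31.77% and 30.04%. The promoter of Acta2, which encodes smooth muscle actin, went from 84.8 in WT to 43.5 in SG, and that of Cald1, which encodes the actin-binding protein caldesmon, from 107 to 67.6, while those of Tagln (27.3 and 47.0), Tpm1 (70.3 and 93.9) and Myh9 (94.5 and 120) were higher in SG. Of 9 contractile promoters with a summit in both lists 6 were stronger in SG (66.7%, 35.4 to 87.9), against 93.4% of all genes. Cald1 (16 WT-only against 11 SG-only) and Myh9 (10 against 11) had the most one-list summits. Actg2 had a WT-only promoter (9.36) and Cnn1 an SG-only one (9.22), although the 2 SG summits nearest to Cnn1 were both shared.

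Ligands and receptors of the TGF-β pathway had 105 of 292 WT summits (36.0%, 30.7 to 41.6) and 67 of 252 SG summits (26.6%, 21.5 to 32.4) in 1 list. The shares over all summits were 31.77% and 30.04%. Thbs1 gave 35 of the 105, and without it, a choice made after the values were seen, 70 of 238 WT summits were WT-only (29.4%, 23.99 to 35.5) and 63 of 229 SG summits SG-only (27.5%, 22.1 to 33.6). The ligand genes Tgfb2 (11 WT-only against 4 SG-only) and Tgfb3 (7 against 1) stood towards WT, and the latent TGF-β binding protein gene Ltbp2 (1 against 7) and the receptor gene Tgfbr2 (6 against 9, promoter 53.2 in WT and 133 in SG) towards SG. The inhibitory Smad7 had 9 against 9 and the signal transducer Smad3 7 against 9. Among 20 genes of BMP, Wnt and FGF signalling 38 of 80 WT summits (47.5%, 36.9 to 58.3) and 21 of 66 SG summits (31.8%, 21.8 to 43.8) were one-list, beside 31.77% and 30.04% of all summits. The Wnt antagonist gene Dkk2 (7 against 0), Fgf7 (9 against 2) and Wnt2 (4 against 0) stood towards WT, and the BMP antagonist genes Grem1 (1 against 4) and Nog (1 against 3) towards SG. The promoter of Nog went from 5.79 to 55.1, and that of Grem1 from no summit in WT to 72.5. Fgf18 also had an SG-only promoter, with a value of 6.02.

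A list of inflammatory genes, which held secreted factors and the enzymes of hyaluronan and prostaglandin synthesis, had 78 of 162 WT summits (48.1%, 40.6 to 55.8) and 38 of 120 SG summits (31.7%, 24.02 to 40.4) one-list, beside 31.77% and 30.04% of all summits. Without Has2, which gave 25 of the 78, the WT share was 53 of 120 (44.2%, 35.6 to 53.1) and the SG share 36 of 101 (35.6%, 26.99 to 45.4). WT-only promoters were found at the chemokine genes Ccl7 (23.3) and Cxcl5 (12.51) and at the cytokine gene Il33 (9.38), and no SG-only promoter was found (1.967% and 5.385% of all genes with a promoter summit in that list). Csf1, which encodes a macrophage growth factor, had 9 WT-only against 7 SG-only summits, and Ptgs2, which encodes a prostaglandin synthase, 9 against 9. Of the 7 promoters of the list with a summit in both lists 6 were stronger in SG (85.7%, 48.7 to 97.4), against 93.4% of all genes, among them those of the chemokine gene Cxcl12 (70.1 and 112), Csf1 (78.0 and 96.4) and Ptgs2 (61.8 and 75.5), and that of Il6 was weaker (52.0 and 31.9).

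Among 15 cartilage and bone genes 3 transcription factor genes had many SG-only summits. The list had 59 of 102 SG summits SG-only (57.8%, 48.1 to 67.0) and 36 of 80 WT summits WT-only (45.0%, 34.6 to 55.9), beside 30.04% and 31.77% of all summits. More SG-only summits were found at 4 genes and more WT-only summits at 3, and without Runx1, Runx3 and Sox9 the counts were 11 of 30 SG summits (36.7%, 21.9 to 54.5) and 20 of 40 WT summits. Besides Runx3, the chondrogenic factor gene Sox9 had 3 WT-only and 13 SG-only summits, its promoter went from 24.3 to 74.6, and its 8 shared summits had a median of 10.1 in WT and 27.8 in SG. Runx1 had 13 against 22, whereas Runx2, the osteoblast factor gene, had 14 against 8. Of 12 adipogenic genes, Zfp423 (0 against 7) stood towards SG and Ebf1 (7 against 0) towards WT, and the list as a whole had 19 of 48 and 23 of 52 summits one-list. Cebpb had 5 against 5, and Pparg had an SG-only promoter of 10.2.

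Growth control genes were near the background as a list, with 64 of 208 WT summits (30.8%) and 64 of 201 SG summits (31.8%) one-list, beside 31.77% and 30.04% of all summits, but Myc (32 against 20) and Cdkn2b (15 against 5) stood towards WT and Ccnd1 and Mycn (0 against 6) towards SG. Ccnd2 had an SG-only promoter of 39.6. Among AP-1 and YAP/TEAD genes, 54 of 187 (28.9%, 22.9 to 35.7) and 47 of 179 (26.3%, 20.4 to 33.2) were one-list, beside the same 31.77% and 30.04%. The co-activator gene Yap1 had 10 WT-only and 0 SG-only summits, between 3.05 and 43.1 kb from its start, with its promoter at 64.6 in WT and 97.0 in SG. Amotl2 had 9 against 3, Ankrd1 5 against 8, and Fosb 1 against 6 with an SG-only promoter of 34.5.

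The summit counts of patterning genes were near the background as lists, with 31.77% and 30.04% of all summits one-list. The Hox clusters had 26 of 69 WT and 23 of 63 SG summits one-list (37.7%, 27.2 to 49.5, and 36.5%, 25.7 to 48.9), with Hoxb5 (4 against 0) and Hoxa4 (4 against 0) towards WT and Hoxb8 (0 against 4) and Hoxc8 (0 against 3) towards SG. Hoxa3 had 2 against 3. Hoxb3 had a WT-only promoter of 8.76, and Hoxb8 (11.6) and Hoxc10 (27.4) SG-only ones. Over 43 mesenchymal patterning factors 76 of 222 (34.2%, 28.3 to 40.7) and 65 of 209 (31.1%, 25.2 to 37.7) were one-list. Of these factors 6 had an SG-only promoter, 1 a WT-only promoter and 22 a promoter summit in both lists. Over all genes with an SG promoter summit 5.385% were SG-only. The SG-only promoters were those of Meis1 (147), Irx3 (18.1), Tbx2 (15.2), Msx1 (9.81), Foxd1 (7.07) and Gata4 (7.09). Among the 8 genes that the study put forward as candidate master factors, 36 of 123 (29.3%) and 52 of 138 (37.7%) were one-list, with Klf4 at 11 against 12 and Klf13 (1 against 7), Nfix (2 against 7) and Tead1 (6 against 10) towards SG. Of 10 myogenic genes 4 had any summit, with 1 against 3 at Tnnt2, 1 against 0 at Pax3 and 0 against 2 at Des.

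Prrx1 itself (chr1:165175247-165243841) was acetylated in both lists, with 21 WT and 18 SG summits of which 10 and 8 were one-list. Its strongest summits, 1636 bp into the gene in WT and 1355 bp in SG, had −log10 p of 91.7 and 113. WT-only summits were found upstream of the gene, at −5679 and −6437 bp (15.0 and 27.3), and in the gene body. Those at 8128, 10429 and 11325 bp from its start (8.13, 15.9 and 15.9) and the upstream ones lay at least 6773 bp from any SG summit. Further WT-only summits in the gene body, at 23701, 27016 and 31100 bp from its start, lay 933, 1358 and 633 bp from an SG summit. The 8 SG-only summits lay in the gene body between 20521 and 59716 bp from the start, each 617 to 1684 bp from a WT summit, and the strongest were at 32809, 22768 and 40616 bp (28.6, 18.8 and 16.2). The guide acts on the coding sequence, so these values do not check whether PRRX1 protein was lost. The only H3K27ac summit within 1000 bp of an annotated Prrx1 TSS was WT-only, at an internal start, with a value of 10.9. An SG summit of 18.8 lay 933 bp from it. The H3K4me3 region over its start was 8628 bp wide in WT and 7341 bp in SG.

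Markers were compared as a check on cell type. Of 10 fibroblast markers 8 had a promoter summit in both lists and 9 were nearest to a summit, with 41 of 87 WT (47.1%, 37.0 to 57.5) and 25 of 73 SG summits (34.2%, 24.4 to 45.7) one-list, beside 31.77% and 30.04% of all summits. The epithelial markers had 2 of 12 WT and 8 of 18 SG summits one-list, the endothelial markers 5 of 19 and 5 of 20, the blood markers 5 of 5 and 2 of 2, and the neural markers 0 of 2 and 6 of 8. Their part in the other results was not tested. Epithelial, endothelial and blood markers together had 0 promoters with a summit in both lists, and 1 neural marker, Nes, had one. Krt14 (12.9), Csf1r (9.90) and Tubb3 (60.5) had an SG-only promoter and the blood marker gene Cd53 (7.18) a WT-only one. Within the fibroblast list Pdgfra had an SG-only promoter of 24.5, although H3K4me3 covered it in both lines (5822 and 4405 bp). Summits cannot tell fewer cells of a type from less acetylation per cell.

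PRRX1 binding was measured in WT MEFs, and its summits lay near a few percent of distal sites or fewer. A PRRX1 summit lay within 500 bp of 327 of 18299 distal WT summits shared with SG (1.79%, 1.605 to 1.99), of 319 of 12004 distal WT-only summits (2.66%, 2.38 to 2.96) and of 130 of 3721 isolated ones (3.49%, 2.95 to 4.13). It lay near 93 of 11225 distal SG-only summits (0.829%, 0.677 to 1.01) and 6 of 2231 isolated ones (0.269%, 0.123 to 0.586). PRRX1 was mapped in WT cells only, so the shares at SG-only sites describe PRRX1 in cells with no H3K27ac summit within 500 bp of those sites.

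The sequence around the sites differed by base composition. Windows 2000 bp to either side of distal summits had a median GC content of 43.3% for WT-only, 45.0% for shared and 46.5% for SG-only summits, and of 41.3% and 46.3% for isolated WT-only and SG-only summits. With the distal summits of both lists divided into quartiles of this flanking GC content, the share of WT summits present in SG was 52.4% (51.4 to 53.5) in the lowest and 67.4% (66.3 to 68.5) in the highest quartile, and the share of SG summits present in WT was 68.8% (67.6 to 69.9) and 55.0% (54.0 to 56.1). The median −log10 p over the same quartiles was 14.1 to 14.8 in WT and 15.3 to 15.98 in SG. The part of base composition in the counts of one-list summits was not tested.

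**Figure D5:**
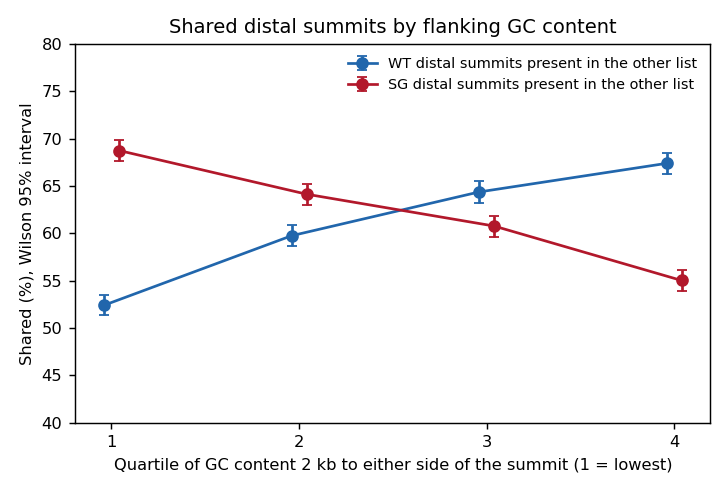
Percent of distal WT summits (blue) and distal SG summits (red) shared with the other list, by quartile of GC content 2000 bp to either side of the summit (horizontal axis, 1 lowest); bars are Wilson 95% intervals and the vertical axis starts at 40%. The lines cross, from 52.4% and 68.8% in the lowest quartile to 67.4% and 55.0% in the highest.

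The lists also differed by distance from genes, without a steady order in WT. Beyond 100000 bp from a TSS, 50.0% (48.7 to 51.3) of 5744 WT summits were shared with SG and 67.3% (65.9 to 68.7) of 4268 SG summits with WT, whereas between 1000 and 5000 bp the values were 59.2% and 54.6%. Between these distances the WT share was higher than at either end, with 65.7% (64.7 to 66.8) from 5000 to 20000 bp and 62.3% (61.4 to 63.2) from there to 100000 bp, and the SG share was 60.9% (59.9 to 62.0) and 63.5% (62.6 to 64.4). On chromosome X, SG had 922 summits against 1197 in WT, a ratio of 0.770, and 80.7% (78.0 to 83.1) of the SG summits were shared, against 65.2% to 74.3% on the autosomes. The ratio was 0.869 on chromosome 3 and between 0.897 and 1.04 on the other autosomes.

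Words within 100 bp of distal summits were counted beside the same words in windows 2000 bp away. CCNCNCCC was present at 16.8% (16.2 to 17.5) of WT-only, 22.1% (21.5 to 22.7) of shared WT and 24.2% (23.4 to 24.99) of SG-only summits, with 15.1%, 16.9% and 19.0% in windows 2000 bp away. CAGCTG was present at 11.1% (10.5 to 11.7), 13.1% (12.6 to 13.6) and 14.8% (14.2 to 15.5), with 8.27%, 9.44% and 10.3% away from the summit. TAATTA was present at 3.35% (3.04 to 3.69), 2.76% (2.53 to 3.01) and 2.17% (1.92 to 2.46), below its level of 6.49%, 5.801% and 4.84% in the windows 2000 bp away. TGANTCA, the word of AP-1, was present at 5.53% (5.14 to 5.95), 4.89% (4.58 to 5.21) and 4.91% (4.52 to 5.32), with 6.79%, 6.24% and 6.91% away from the summit, and GGAATG, the word of TEAD, at 12.1% (11.6 to 12.7), 11.5% (11.0 to 12.0) and 11.1% (10.5 to 11.6), with 11.03%, 10.9% and 11.2%. These shares were read without correction for the GC content given above.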

How the data were processed

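The series held 24 samples, of which 7 were H3K27ac libraries, and 2 of these were compared here. By the study's methods, the authors used Trimmomatic for trimming paired-end reads, Bowtie for alignment (mm9) and Picard for duplicates, and took peaks from MACS2 with each line's input as control, at a p cutoff whose −log10 was 5. The deposited H3K27ac and PRRX1 lists give 1 base per summit with the −log10 p-value as the score. The deposited H3K4me3 files, called with the broad option by the authors, give regions with a fold enrichment (a ratio to input) and a −log10 p-value. Each H3K27ac and H3K4me3 list came from 1 library, the methods state that PRRX1 was mapped in duplicate without saying whether the single deposited list pools both, and no read count or depth is given, so the precision of single summits is unknown.

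Summits of WT and SG were compared by position alone (shared within 500 bp, promoter within 1000 bp of a TSS of a protein-coding gene, NCBIM37 annotation), and GC content and words were read from the mm9 sequence 100 bp to either side of each summit and 2000 bp away. Runs joined at least 3 one-list summits no more than 25 times the shared distance apart. H3K4me3 was counted where a region covered a TSS. Intervals are Wilson 95% and cover counting error over summits only. The scripts were tested on simulated data. With 1 library per genotype no test across genotypes was made. Alternatives were another shared distance, promoter distance, strength minimum, list size, TSS set and run gap, and, added after the data were seen, the X and Y chromosomes left out and 3 lists without their leading genes. The H3K27ac lists of the other genotypes and tissues were counted at the same sites and are not reported here.

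The members, lists and classes were chosen with earlier results of these data known, and the interferon-stimulated list and the isolated class after the values were seen. Genes were named as the 10 runs with the most summits per direction, the 10 strongest one-list promoters and distal summits per direction, list members with a one-list promoter, the 2 members per list with the most one-list summits in each direction, Prrx1, and the 5 genes with the largest difference in each direction. Other list members given with values were chosen after those values were seen. Foxf1 and Spi1 could not be matched by symbol, and of 13 adipogenic genes listed 12 were matched. Some list members that the rule names are not reported here. For marker lists only the members with a promoter summit are given.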

Additional observations from a re-analysis of the deposited data

How the results depend on the processing

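Every share moved with the distance at which summits were called shared. At 250 bp, 61.7% of WT and 64.4% of SG summits were shared (promoter 77.4% and 83.0%, distal 54.1% and 55.8%), and at 1 kb 79.7% and 79.5% (promoter 96.3% and 93.1%, distal 71.7% and 73.1%). With a −log10 p of at least 10 in both lists the shares were 70.5% of WT, 85.3% of WT promoter, 61.5% of WT distal and 60.4% of SG distal summits. With this minimum on the counted summits only, they were 74.5% of WT and 76.6% of SG (promoter 86.0% and 90.0%, distal 67.5% and 68.9%). With lists cut to equal size they were 69.5% of WT, 68.4% of SG, 61.7% of WT distal, 87.0% of SG promoter and 59.8% of SG distal. With promoters taken to 2500 bp, 80.5% of WT promoter, 82.1% of SG promoter and 62.7% of SG distal summits were shared. With the TSS of every gene type the values were 83.6%, 85.5% and, for WT distal summits, 59.8%. WT-only runs numbered 684, or 378 with a −log10 p of at least 10 in both lists, and otherwise 532 to 732, and SG-only runs 543, or 390 to 621. SG-only runs outnumbered WT-only runs with that minimum (395 against 378) and with lists cut to equal size (608 against 585). Leaving out chromosomes X and Y, added after the data were seen, moved no share beyond its interval. No paired analysis was possible because each genotype had 1 library and no test was made. The unknown depth limits every statement on a summit absent from a list, which was not detected there rather than shown to be absent.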
